A study of Saccharomyces cerevisiae with 12 samples.

Results

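The 8 genes described here encode the glucan-remodelling enzymes of the *Saccharomyces cerevisiae* cell wall, namely *GAS1*, *GAS2*, *GAS3*, *GAS4* and *GAS5* of the GAS glucanosyltransferase family and *CRH1*, *UTR2* (also called *CRH2*) and *CRR1* of the CRH transglycosylase family. They were chosen by gene symbol among the 5449 genes measured, at a time when their log2 signals across the strains were already known. Their systematic names are YMR307W (*GAS1*), YLR343W (*GAS2*), YMR215W (*GAS3*), YOL132W (*GAS4*), YOL030W (*GAS5*), YGR189C (*CRH1*), YEL040W (*UTR2*) and YLR213C (*CRR1*). Each had 1 probe set paired with that gene alone, and all 8 could be measured. *GAS1*, *GAS3*, *GAS5*, *CRH1* and *UTR2* were grouped as the 5 vegetative genes and *GAS2*, *GAS4* and *CRR1* as the 3 sporulation genes. Because the strain differences were in view when the genes were chosen, those differences are given as a description, and the adjusted p-values, which come from a fit over all 5449 genes, are not independent support for the choice.

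The study asked how mRNA levels depend on DNA topoisomerases I and II. The double mutant *top1Δtop2ts* (W303 *top1::natr top2-1*), the single mutants *top1Δ* (W303 *top1::natr*) and *top2ts* (W303 *top2-1*) and the isogenic wild-type (W303) were each measured on 3 Affymetrix Yeast Genome 2.0 arrays from 3 biological replicates. *top1::natr* removes Top1p, and *top2-1* makes Top2p temperature-sensitive. All strains, wild-type included, were of mating type a and spent 90 min with α-factor, a pheromone that holds such cells in G1, at 25°C in YPD, and a further 90 min with α-factor at 37°C. Every culture was therefore arrested and warmed. Spike-in RNAs were mixed in, and 2 µg of total RNA was labelled. The values are the MAS5 signals deposited by the authors, on a linear scale with 1 value per probe set. A bulk measurement of this kind cannot tell fewer cells with a transcript from less transcript per cell.

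The yeast wall is built on chains of β-1,3-glucan, to which β-1,6-glucan, chitin and mannoproteins are attached. Gas proteins are anchored at the cell surface and cut β-1,3-glucan chains and rejoin them into longer ones, and Crh proteins move chitin onto glucan, so both families make covalent bonds in wall material outside the membrane. *GAS1*, *CRH1* and *UTR2* are known from growing cells, where a loss of *GAS1* weakens the wall, while *GAS2*, *GAS4* and *CRR1* are known from the building of the spore wall, a process that haploid cells in α-factor do not enter.

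*TOP1* checked the labels, with a mean signal of 3.50 ± 5.20 (SD, n = 3) in *top1Δtop2ts*, 0.933 ± 0.231 in *top1Δ*, 1065 ± 260 in *top2ts* and 1041 ± 269 in wild-type. Background was read from 17 Tag control probe sets, which match no yeast transcript and whose 95th percentile was a signal of 18.4. The 36 probe sets of the added spike-ins differed from wild-type by 0.15 in *top1Δtop2ts*, 0.03 in *top1Δ* and -0.00 in *top2ts* on the log2 scale, whereas all arrays of replicate 2 were dimmer, with a mean spike-in log2 signal of 9.88 to 10.01 against 10.85 to 11.08 in the other 8 arrays. The median yeast gene had a log2 change from wild-type of -0.54 in *top1Δtop2ts*, -0.17 in *top1Δ* and -0.22 in *top2ts*. Changes below are log2 differences of a mutant minus wild-type on the deposited scale from limma fitted to the 12 arrays together, called at a Benjamini-Hochberg adjusted p under 0.05. The standard error of a change was 0.39 for every gene, since the estimated prior variance took the place of the single genes' own spread. Where adding the replicate number to the fit as a block, or setting all arrays to the same median, changes a call of the 8 genes, that value is also given. With equal medians the median gene changed by -0.02 in *top1Δtop2ts*, so those values are changes relative to the bulk of the transcriptome. All comparisons with wild-type share the same 3 wild-type arrays.

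Of the vegetative genes, *GAS1* and *UTR2* fell in *top1Δtop2ts*, to 36.1% and 43.1% of wild-type, while neither was past the threshold in a single mutant. *GAS1*, the main β-1,3-glucanosyltransferase of growing cells, had signals of 3989, 2684 and 3768 on the *top1Δtop2ts* arrays of replicates 1, 2 and 3 and of 9479.7, 6613 and 8684 on the *top1Δ* arrays. The *top2ts* arrays had 11819, 5642 and 9721, against 11872, 7523 and 9616 in wild-type. Every *top1Δtop2ts* array lay below every array of the other 3 strains, whose ranges overlapped. The log2 change of *GAS1* was -1.47 in *top1Δtop2ts* (adjusted p = 0.00362 from limma), and the 3 same-numbered differences ran from -1.57 to -1.35. It was -0.22 in *top1Δ* and -0.14 in *top2ts* (adjusted p of 1.00 and 0.995). In fits without the replicate block, the call in *top1Δtop2ts* was lost without wild-type replicate 1 (adjusted p = 0.0504). With the block and all arrays, the adjusted p of *GAS1* there was 7.71e-07 from limma.

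*UTR2*, which encodes a transglycosylase that joins chitin to glucan around the bud neck, had signals of 4727, 3128 and 4243 on the *top1Δtop2ts* arrays and of 8707, 5714 and 7507 on the *top1Δ* arrays. The *top2ts* arrays had 9008, 4809.8 and 8672, against 10679.6, 7976 and 9169.8 in wild-type. The *top1Δtop2ts* arrays again lay below all others, and the lowest array of each of the other strains was that of replicate 2. The log2 change of *UTR2* was -1.21 in *top1Δtop2ts* (adjusted p = 0.0199 from limma), -0.35 in *top1Δ* and -0.35 in *top2ts*. In fits without the replicate block, the call in *top1Δtop2ts* was lost when an array was left out. The adjusted p was 0.125 without replicate 1 of wild-type, 0.0957 without its replicate 3 and 0.116 without replicate 2 of *top1Δtop2ts*. With the block and all arrays, the adjusted p of *UTR2* there was 5.97e-06 from limma. Its same-numbered differences ran from -1.35 to -1.11.

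The other vegetative genes, *CRH1*, *GAS3* and *GAS5*, were not past the threshold in any strain. *CRH1*, whose enzyme does the same kind of transfer as that of *UTR2*, had signals of 6779, 4336 and 9152 in *top1Δtop2ts*, against 10427, 8397 and 8873 in wild-type. The groups overlapped, since replicate 3 of *top1Δtop2ts* was above 2 wild-type arrays. *CRH1* had a log2 change of -0.51 in *top1Δtop2ts* (adjusted p = 0.338), -0.27 in *top1Δ* and -0.14 in *top2ts*. *GAS5*, a further glucanosyltransferase gene of growing cells, had signals of 6227, 3666 and 6731 in *top1Δtop2ts* against 8441, 6216 and 6936 in wild-type. Here too the groups overlapped, and the log2 changes were -0.41 in *top1Δtop2ts* (adjusted p = 0.434), -0.04 in *top1Δ* and -0.22 in *top2ts*. *GAS3*, another Gas family member of growing cells, had 1662, 851 and 2366 in *top1Δtop2ts* against 3925, 1795 and 2889.5 in wild-type. Its arrays spread widely within each strain and the groups overlapped, with log2 changes of -0.87 in *top1Δtop2ts* (adjusted p = 0.102), -0.05 in *top1Δ* and -0.46 in *top2ts*. The single mutants overlapped wild-type for all 3 genes, with *CRH1* at 5992 to 8757 in *top1Δ* and 5589 to 10824 in *top2ts*, *GAS5* at 5517 to 8064 and 3722 to 8142, and *GAS3* at 1967 to 3256 and 1049.7 to 3192.

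**Figure D1:**
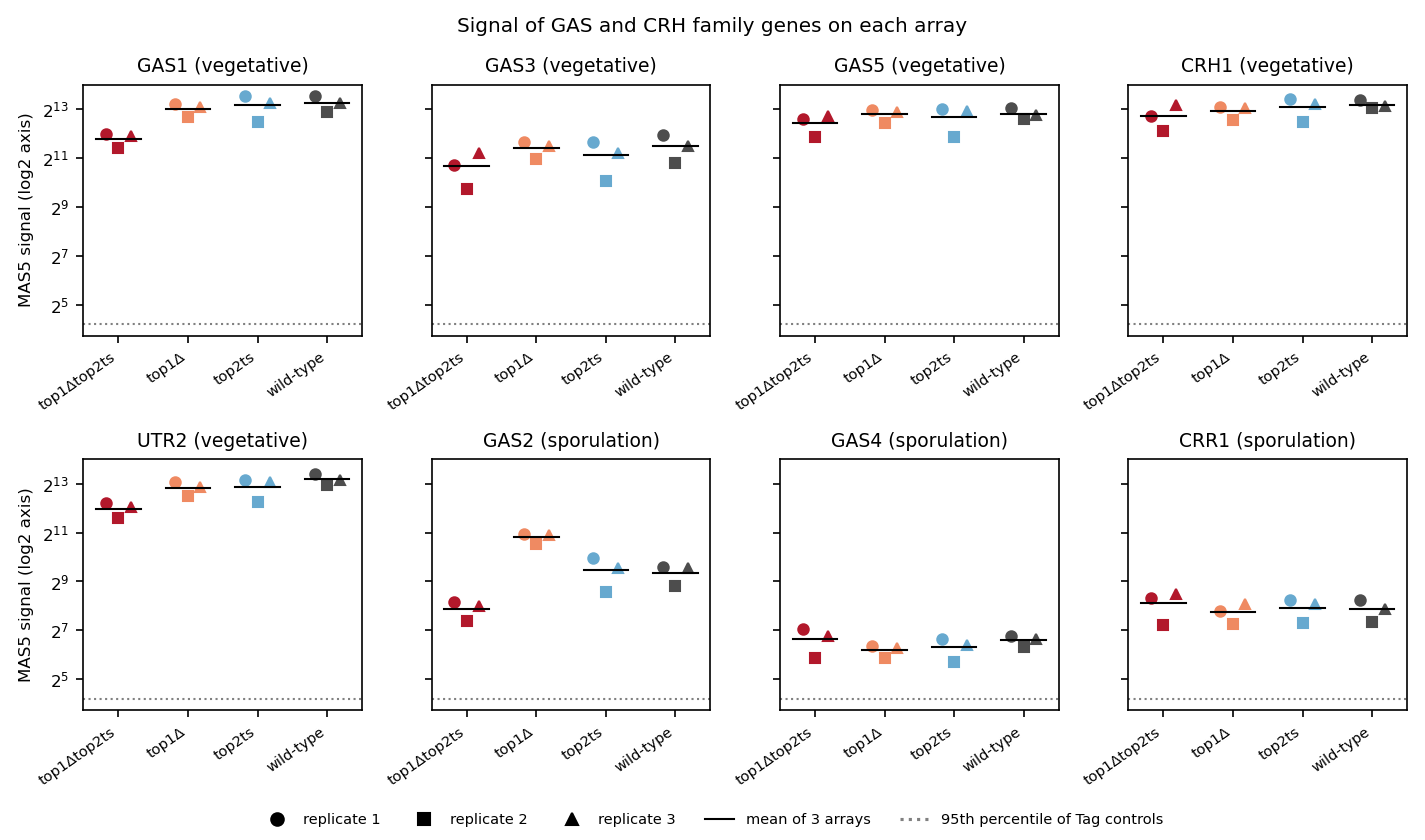
MAS5 signal (y axis, log2 scale, arbitrary units) of the 8 genes on each array, with 1 panel per gene and the strains on the x axis. Symbols mark the replicate number, bars the mean of 3 arrays and the dotted line the 95th percentile of the Tag controls at 18.4. *GAS1*, *UTR2* and *GAS2* stand lowest in *top1Δtop2ts*, *GAS2* stands highest in *top1Δ*, and the arrays of replicate 2 lie lowest within every group.

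*GAS2* stood apart from the other 7 genes, as it rose in *top1Δ* and fell in *top1Δtop2ts*. Its product is a glucanosyltransferase that acts with Gas4p in the spore wall. The signals of *GAS2* were 284, 167 and 252 in *top1Δtop2ts* and 1988, 1502 and 1909.7 in *top1Δ*. The *top2ts* arrays had 1008, 381 and 746, against 780.3, 447 and 739.7 in wild-type. All *top1Δ* arrays lay above, and all *top1Δtop2ts* arrays below, the arrays of wild-type and *top2ts*, which overlapped. All 12 signals were well above the Tag controls. So was *SAG1*, a marker of mating type α, with a mean of 904.5 in wild-type. A signal above that level therefore does not by itself show that a transcript was present. The means were 234 ± 60.3 in *top1Δtop2ts*, 1799.7 ± 261 in *top1Δ*, 712 ± 315 in *top2ts* and 656 ± 182 in wild-type (SD, n = 3 each).

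The log2 change of *GAS2* was 1.49 in *top1Δ* (adjusted p = 0.0217 from limma), a 2.81-fold rise, and only 2 of the other genes measured had a larger one there. This call was lost without replicate 2 or 3 of wild-type (adjusted p = 0.0784 and 0.0963) and without replicate 1, 2 or 3 of *top1Δ* (0.188, 0.0831 and 0.171), although the change stayed between 1.23 and 1.64. With the replicate block the adjusted p was 2.64e-05, and with equal medians the change was 1.69 (adjusted p = 8.87e-06). In *top1Δtop2ts* the log2 change of *GAS2* was -1.48 (adjusted p = 0.00346), lost without wild-type replicate 3 (0.0538, no block). With the block and all arrays, the adjusted p there was 2.45e-06 from limma. In *top2ts* it was 0.05 (adjusted p = 0.995), with same-numbered differences of 0.37, -0.23 and 0.01.

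In these arrays the change of *GAS2* with loss of each topoisomerase differed with the state of the other. Loss of Top1p went with a log2 change of 1.49 where Top2p was active and of -1.53 where it was not. Inactivation of Top2p went with a change of 0.05 in cells with Top1p and of -2.97 in *top1Δ* cells, where the 3 same-numbered differences were -2.81, -3.17 and -2.92. This difference was expressed as how far *top1Δtop2ts* lay from both single-mutant changes added together. The gene was chosen with these values known, so the p-value and rank that follow describe the arrays and are not independent support. This departure was -3.02 ± 0.55 (SE) for *GAS2* (adjusted p = 1.02e-05 from limma). Only 11 of the other genes had a lower value. The departure passed with each array left out in turn (-3.41 to -2.71).

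*GAS4* and *CRR1*, the other sporulation genes, were dim in every strain and were not past the threshold on the deposited scale. In *top1Δtop2ts*, however, *GAS2* was dimmer than *CRR1*, with means of 234 and 279. *GAS4*, the partner of *GAS2* in the spore wall, had signals of 132, 58.0 and 109 on the *top1Δtop2ts* arrays, 82.6, 58.3 and 77.1 on the *top1Δ* arrays, 99.2, 52.8 and 85.0 on the *top2ts* arrays and 108, 80.7 and 101 on those of wild-type. *CRR1*, a spore wall relative of *CRH1*, had 323, 150.3 and 364 on the *top1Δtop2ts* arrays, 219, 152 and 273 on the *top1Δ* arrays, 303, 158 and 268 on the *top2ts* arrays and 306, 164 and 236 on those of wild-type. For both genes the arrays of all strains overlapped. The log2 changes of *GAS4* were -0.03 in *top1Δtop2ts* (adjusted p = 0.964), -0.41 in *top1Δ* and -0.33 in *top2ts*. Those of *CRR1* were 0.19 in *top1Δtop2ts* (adjusted p = 0.732), -0.13 in *top1Δ* and 0.04 in *top2ts*. The lowest signal of the whole family, 52.8 for *GAS4* in replicate 2 of *top2ts*, was still above the Tag level.

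Counted over the family, 3 of 8 genes fell and 0 rose in *top1Δtop2ts* at the adjusted threshold in limma, where 15.1% of all genes fell and 1.25% rose. At an unadjusted p under 0.05, 4 of 8 were lower and 0 higher. Shares of all genes at that unadjusted threshold are not given here or below, so counts at it have no background to be set against. The median change was -0.69 over the 8 genes, -0.87 over the 5 vegetative genes (2 fell) and -0.03 over the 3 sporulation genes (1 fell), beside -0.54 over all genes. The arrays of *GAS1*, *UTR2* and *GAS2* in *top1Δtop2ts* lay below all wild-type arrays, as did those of 28.7% of all genes. In *top1Δ*, 0 of 8 genes fell and *GAS2* alone rose, beside 0.936% and 0.0551% of all genes, and the *GAS2* arrays lay above all wild-type arrays, as did those of 0.532% of genes. In *top2ts*, 0 of 8 genes fell or rose at the adjusted threshold in limma, beside 0.532% and 0.330% of all genes, and 0 had an unadjusted p under 0.05. The departure was past the threshold for *GAS2* alone, as a negative value, beside 0.679% of genes with negative and 1.65% with positive departures. Nothing is read from these shares about the family, since the genes were chosen with their changes known.

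**Figure D2:**
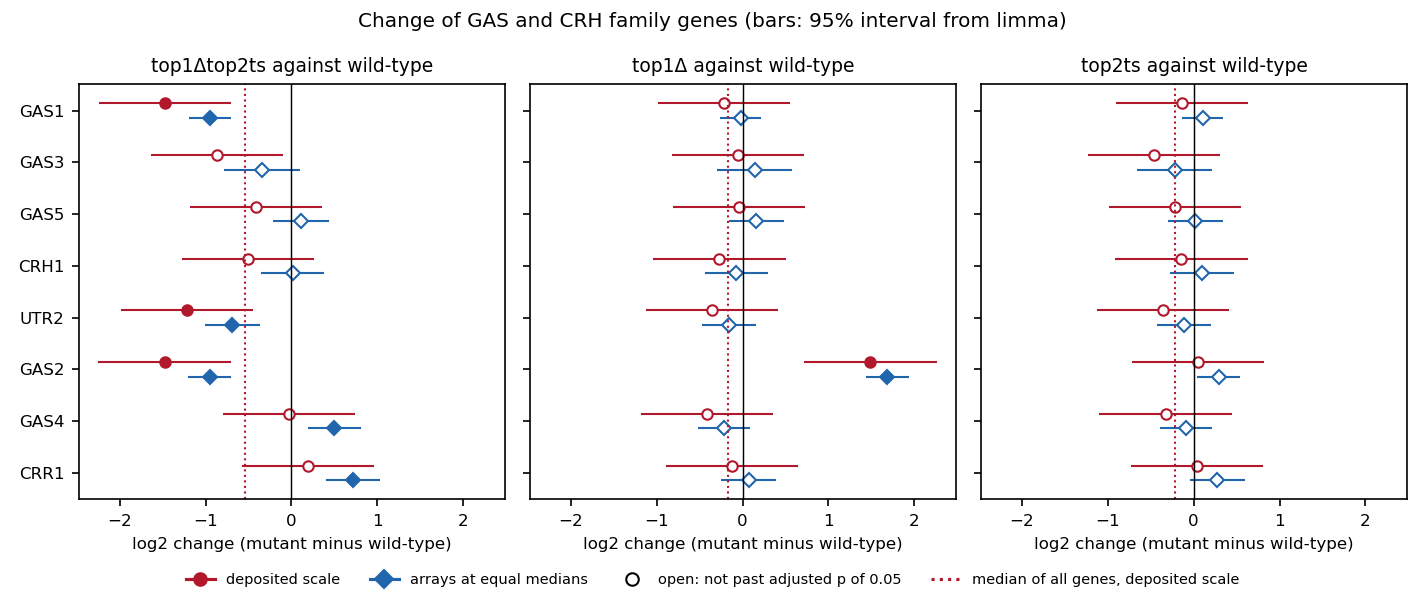
Log2 change of the 8 genes (mutant minus wild-type, x axis) in *top1Δtop2ts*, *top1Δ* and *top2ts*, from limma on the deposited scale (circles) and with arrays at equal medians (diamonds), with 95% intervals. Filled symbols passed an adjusted p of 0.05, and the dotted line is the median of all genes on the deposited scale, at -0.54, -0.17 and -0.22.

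The replicate block and the scaling of the arrays moved these counts. With the replicate number as a block, 6 of 8 genes fell in *top1Δtop2ts*, beside 62.7% of all genes, since *GAS3*, *GAS5* and *CRH1* passed as well (adjusted p = 0.00113, 0.0425 and 0.0192 from limma). In the same fit 1 of 8 genes rose in *top1Δ*, again *GAS2*, beside 0.569% of genes. The departure then also passed for *GAS1* (-1.12, adjusted p = 0.00137) and *GAS4* (0.71, adjusted p = 0.0350), where 14.0% of genes had negative and 9.21% positive departures past the threshold. At equal medians the departures of *GAS1* and *GAS4* passed as well (-1.03 and 0.80, adjusted p = 0.000536 and 0.00986). With equal medians, *GAS1*, *UTR2* and *GAS2* fell in *top1Δtop2ts* by 0.95, 0.69 and 0.95 on the log2 scale (adjusted p = 3.52e-05, 0.00226 and 4.48e-05), beside 22.9% of all genes.

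Relative to the other transcripts of the same array, *CRR1* and *GAS4* were higher in *top1Δtop2ts* than in wild-type. With equal medians their log2 changes were 0.72 and 0.50 (adjusted p = 0.00172 and 0.0126 from limma), beside 21.7% of genes that rose. *CRR1* lay above all wild-type arrays, as 24.7% of genes did, while *GAS4* overlapped, with same-numbered differences of 0.93, -0.01 and 0.57. The *top2ts* arrays of *CRR1* also lay above all wild-type arrays on this scale, and the share of all genes that did so is not given here. Its change in *top2ts* was 0.28, not past the threshold (adjusted p = 0.307 from limma). The *top1Δtop2ts* arrays of *GAS1*, *UTR2* and *GAS2* remained below all wild-type arrays on this scale, as did those of 27.8% of genes. *CRH1*, *GAS5* and *GAS3* had changes of 0.01, 0.11 and -0.34, none past the threshold. Over the vegetative genes the changes in *top1Δtop2ts* at equal medians spanned -0.95 for *GAS1* to 0.11 for *GAS5*, and the direction for *CRH1*, *GAS5* and *GAS4* depended on the scaling.

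**Figure D3:**
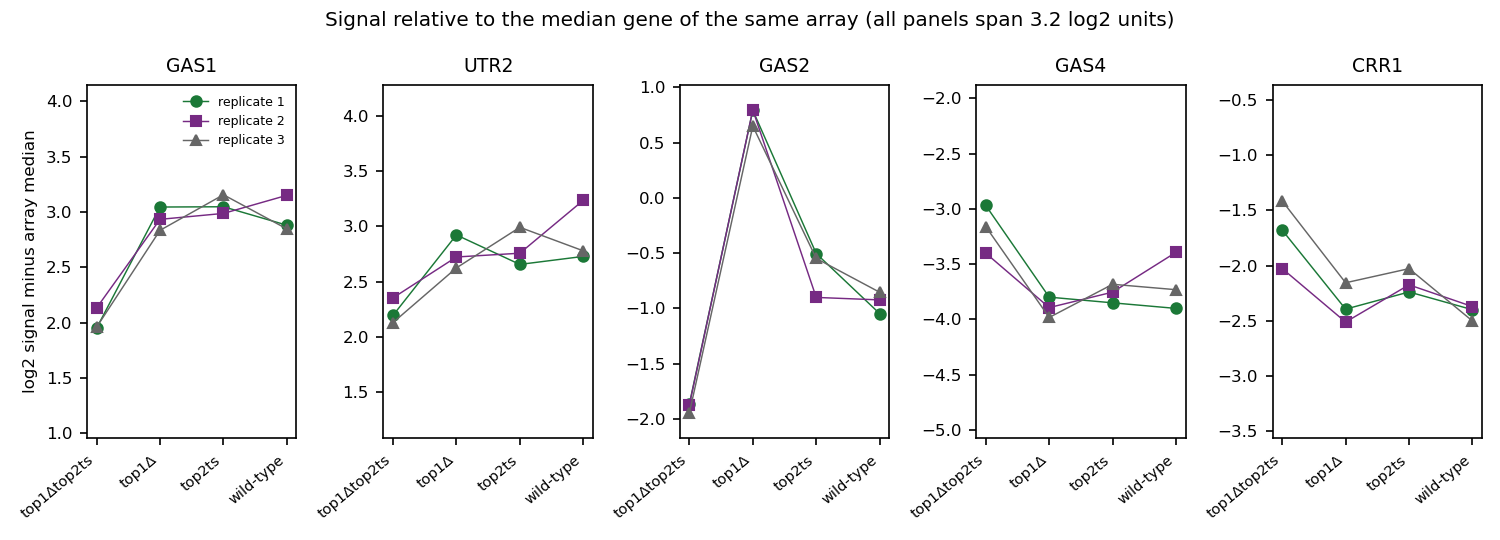
Log2 signal minus the median log2 signal of all genes on the same array (y axis) for *GAS1*, *UTR2*, *GAS2*, *GAS4* and *CRR1* by strain (x axis), with lines joining the arrays of a replicate number. The lines for *GAS2* lie close together except in *top2ts*, with -1.95 to -1.86 in *top1Δtop2ts*, 0.65 to 0.79 in *top1Δ*, -0.90 to -0.50 in *top2ts* and -1.05 to -0.85 in wild-type.

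Expressed against the array median, *GAS2* had a smaller spread within each strain than on the deposited scale, and the widest was in *top2ts*. Its log2 distance from the median gene was -1.89 ± 0.05 in *top1Δtop2ts*, 0.74 ± 0.08 in *top1Δ*, -0.65 ± 0.22 in *top2ts* and -0.94 ± 0.10 in wild-type (SD, n = 3 each). *GAS1* had 2.01 ± 0.10 in *top1Δtop2ts*, 2.94 ± 0.11 in *top1Δ*, 3.06 ± 0.09 in *top2ts* and 2.96 ± 0.17 in wild-type. On this scale the arrays of *GAS1* were clear of wild-type in *top1Δtop2ts* alone, whereas those of *GAS2* were clear of it in both *top1Δtop2ts* and *top1Δ*.

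Over the 12 arrays at equal medians, the log2 signals of the 8 genes did not move as 1 group. The 28 pairs had Pearson correlations from -0.79 to 0.92 with a median of 0.23, and 9 were below 0. *GAS1* and *UTR2* had 0.92, *GAS4* and *CRR1* 0.75 and *GAS5* and *CRH1* 0.70, while *GAS1* with *CRR1* had -0.79 and *GAS2* with *GAS4* -0.77. These points share the 4 strains and the scaling, so the values only describe the arrays.

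The genes most like *GAS1* over the 12 arrays were *RPS1A*, *RPL27B* and *RPS23B* (Pearson r of 0.99, 0.98 and 0.98), which encode ribosomal proteins and have near-identical copies in the genome, so that their probe sets may read both. Most like *CRH1* were *ECM33*, which encodes a cell surface protein needed for wall integrity, *ENT4*, an epsin-like gene, and *OLE1*, the fatty acid desaturase gene (r of 0.91, 0.88 and 0.88). Most like *GAS2* were *BRR1*, a splicing factor gene, *ECM7* and *YGR210C* (r of 0.98, 0.97 and 0.96). Their changes were smaller than that of *GAS2*, with 0.45, 0.44 and 0.34 in *top1Δ* and -0.33, -0.32 and -0.11 in *top1Δtop2ts* at equal medians.

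The neighbours of the genes that passed, by gene order in assembly R64, moved in different directions. Next to *GAS2*, at a distance of 110 nt, lies *YLR342W-A*, an uncharacterised reading frame whose single arrays were looked up once its change was seen. *YLR342W-A* had signals of 543, 276 and 475 on the *top1Δtop2ts* arrays and 2230.0, 1655 and 2098 on the *top1Δ* arrays. Its *top2ts* arrays had 2534, 1591 and 1821, against 1480.1, 888 and 1249 in wild-type. It fell in *top1Δtop2ts* (log2 change -1.51, adjusted p = 0.00273 from limma), as *GAS2* did, and all its *top1Δtop2ts* arrays lay below all others. Like *GAS2* it was higher than wild-type in *top1Δ* and lower in *top1Δtop2ts*, so these opposite directions were shared by both transcripts. Unlike *GAS2* it was also higher in *top2ts*, with changes of 0.75 in *top1Δ* and 0.72 in *top2ts*. Those changes were not past the threshold without the replicate block and passed with it (adjusted p = 0.00460 and 0.00778 from limma). Its departure is not given here, and whether both signals have a common source was not tested. The gene on the other side of *GAS2*, *TRR4*, was not analysed here.

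Next to *GAS1* lies *FKS3*, a relative of the glucan synthase genes that is known from the spore wall. It rose in *top1Δtop2ts*, where *GAS1* fell, with 265 ± 72.5 in *top1Δtop2ts* against 123 ± 35.1 in wild-type (SD, n = 3; log2 change 1.10, adjusted p = 0.0366 from limma). In *top1Δ* the log2 change of *FKS3* was -0.85 (adjusted p = 0.663, block 0.00349, equal medians 0.00982) and in *top2ts* -0.42 (0.995, block 0.123). The gene on the other side, *PSE1*, had a log2 change of -0.76 (adjusted p = 0.150), which passed with the replicate block (0.000437). Beside *UTR2*, *YEF1* and *CYC7* had changes of -0.27 and 0.47 in *top1Δtop2ts* (adjusted p = 0.621 and 0.381).

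Further genes were followed in 7 lists, 6 of wall genes and 1 of regulators of meiosis, with 74 entries, 72 different genes, all of them measured. In *top1Δtop2ts* 15 entries fell and 4 rose (beside 15.1% and 1.25% of all genes), and in each single mutant 0 fell and 0 rose in limma. At an unadjusted p under 0.05, for which no share of all genes is given, 6 were lower and 1 higher in *top1Δ*, and 7 lower and 0 higher in *top2ts*. The replicate block moved these counts to 46 and 7 in *top1Δtop2ts* (beside 62.7% and 4.99% of all genes), to 14 and 2 in *top1Δ* (12.4% and 0.569%) and to 11 and 1 in *top2ts* (9.08% and 1.12%). With equal medians 22 fell and 17 rose in *top1Δtop2ts* (22.9% and 21.7%). Of the genes named from these lists, *GSC2*, *FKS3*, *KNH1*, *CHS2*, *OSW2*, *IME1* and *IME2* fell and *DSE2* and *SSP2* rose in *top1Δ* with the block, and *CHS2*, *SUN4*, *OSW2* and *IME1* fell in *top2ts* with the block.

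The substrate of the Gas enzymes is made by β-1,3-glucan synthase, and its 3 catalytic subunit genes differed. *GSC2*, the subunit gene known to respond to wall stress, fell to 2426 ± 654 in *top1Δtop2ts*, against 7689 ± 879 in wild-type (SD, n = 3; log2 change -1.70, adjusted p = 0.000536 from limma). *FKS1*, the subunit gene of growing cells, named here after its values were seen, had 6327 ± 1823 in *top1Δtop2ts* and 12152 ± 1306 in wild-type, a log2 change of -0.98 (adjusted p = 0.0633) that passed with the replicate block (5.51e-05) and with equal medians (-0.46, 0.0497). With *FKS3*, which rose, 1 of the 5 genes of β-1,3-glucan synthesis fell and 1 rose (block 4 and 1), with a median of -0.87. The departure was 2.38 for *FKS3* (adjusted p = 0.00157), where the single-mutant values were below 0, and -0.99 for *GSC2* (0.661, block 0.00413).

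Of 8 genes of β-1,6-glucan synthesis, *KNH1* and *ROT1* fell (block 3), with log2 changes of -1.29 and -1.07 (adjusted p = 0.0120 and 0.0431), and the list median was -0.30. Of 8 genes of chitin synthesis 3 fell (block 7), namely *CHS2*, the chitin synthase gene of the septum, and *CHS5* and *CHS6*, which serve the transport of another chitin synthase to the surface. Their log2 changes were -1.56, -1.25 and -1.22 (adjusted p = 0.00177, 0.0156 and 0.0195). The chitin list median was -0.95.

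Of 11 glucanase and chitinase genes of vegetative cells 4 fell and 1 rose (block 6 and 3), with a median of -0.60. *SUN4*, involved in septation, and *EXG1* and *EXG2*, exo-β-1,3-glucanase genes, fell with log2 changes of -1.61, -1.28 and -1.15 (adjusted p = 0.00123, 0.0133 and 0.0282). *ACF2*, an endoglucanase gene named after its values were seen, had -1.10 (0.0372). *DSE2*, a gene for a wall-degrading protein of daughter cells, rose to 707 ± 120.4 in *top1Δtop2ts*, against 112 ± 24.4 in wild-type (log2 change 2.67, adjusted p = 2.16e-09). Of 15 genes of cell wall integrity signalling, which senses wall damage, *MTL1*, a sensor gene, fell with a log2 change of -1.23 (adjusted p = 0.0176), and with the block 13 fell. The median of this list, -0.54, was that of all genes.

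**Figure D4:**
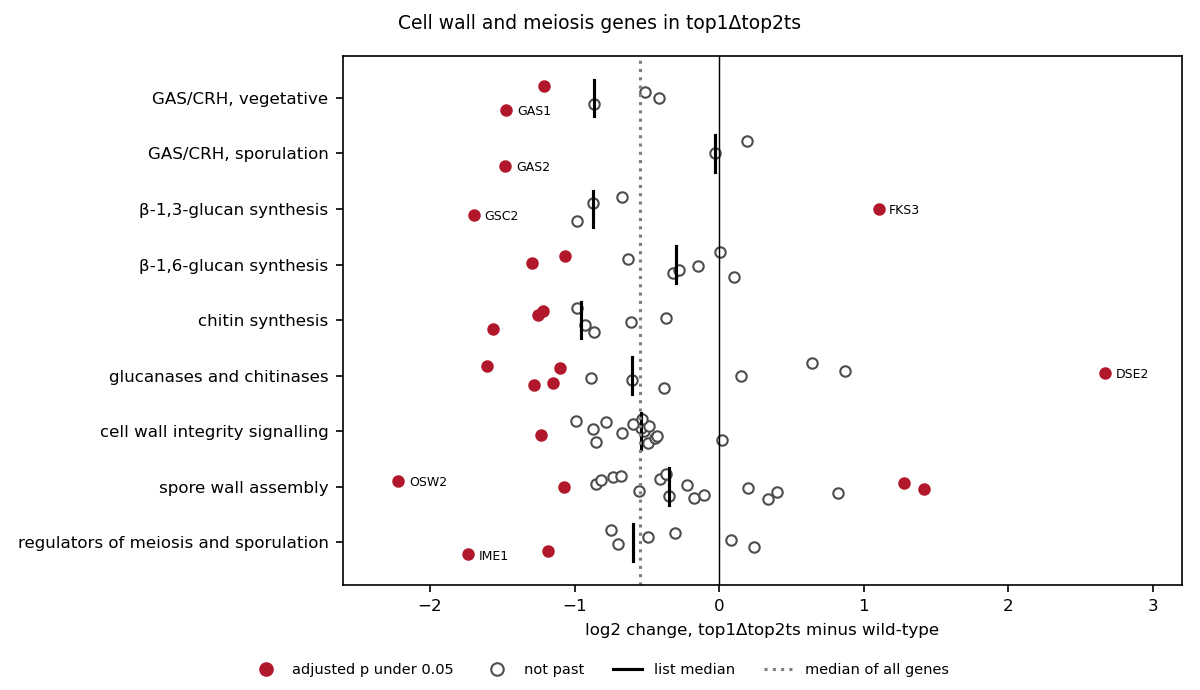
Log2 change in *top1Δtop2ts* (minus wild-type, x axis) of each gene of the 6 wall lists, of the meiosis regulators and of the 5 vegetative and 3 sporulation GAS and CRH genes (y axis). Filled circles passed an adjusted p of 0.05 in limma, bars are list medians and the dotted line is the median of all genes at -0.54. *DSE2* and *FKS3* lie far to the right of the other genes in their lists, at 2.67 and 1.10.

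The spore wall genes moved both ways. Of 19, 2 fell and 2 rose in *top1Δtop2ts* (block 8 and 3), with a median of -0.35. *OSW2* and *SPO73*, both needed for spore wall assembly, fell with log2 changes of -2.22 and -1.07 (adjusted p = 1.63e-06 and 0.0429), while *SPS100* and *OSW1*, which also act in the spore wall, rose with 1.42 and 1.28 (0.00545 and 0.0133). *SPS100* had 121 ± 49.0 in *top1Δtop2ts* against 48.8 ± 29.1 in wild-type, so both rises were in dim genes. In the single mutants 0 of the 19 were past the threshold, and with the block 5 fell and 1 rose in *top1Δ* (median -0.33) and 4 fell and 0 rose in *top2ts* (median -0.39). The 1 that rose was *SSP2*, named after its values were seen, with 500.4 ± 8.85 in *top1Δ* against 249.7 ± 44.6 in wild-type (log2 change 1.02, adjusted p = 0.366, block 0.00212). Its value in *top1Δtop2ts* was 151 ± 30.8, and its departure was -1.15 (adjusted p = 0.490, block 0.00569).

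The regulators of meiosis did not follow *GAS2* in *top1Δ*. *IME1*, the master inducer of meiosis, had 260.3 ± 81.1 in *top1Δtop2ts*, 376 ± 69.97 in *top1Δ*, 367 ± 189 in *top2ts* and 870.1 ± 292 in wild-type. It fell in *top1Δtop2ts* with a log2 change of -1.73 (adjusted p = 0.000380). Its changes of -1.17 in *top1Δ* and -1.32 in *top2ts* had an adjusted p of 0.176 and 0.0769, and passed with the block (0.000398 and 0.000134) and with equal medians (0.00105 and 0.000480). *IME2*, a kinase gene that acts after *IME1*, fell in *top1Δtop2ts* with -1.18 (adjusted p = 0.0235). Of the 8 regulators these 2 fell (block 5), and the list median was -0.60.

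Over the lists above and the markers below, 21 calls of named genes were made in *top1Δtop2ts*. Of these 7 kept an adjusted p under 0.05 with each array left out in turn, those of *GSC2*, *DSE2*, *SUN4*, *OSW2*, *IME1*, *MF(ALPHA)1* and *RNR1*. For *MF(ALPHA)1* the wild-type signals lay around the Tag level. The other 14 were lost without at least 1 array, 12 of them without replicate 3 of wild-type, 11 without its replicate 1 and 10 without replicate 2 of *top1Δtop2ts*. *ROT1* was lost without any of 9 arrays (highest adjusted p 0.231), *SPO73* of 8 (0.273) and *FKS3* and *ACF2* of 7 each (0.158 and 0.255). The fits with an array left out had no replicate block, although the arrays of replicate 2 were dimmer. In the fit of all arrays with the block these 14 calls passed, with the highest adjusted p for *SPS100* (0.000893 from limma).

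The labelled cell type was read from marker genes. All 6 markers of mating type a were bright, with means from 3716 to 11356 in *top1Δtop2ts* and from 4339.9 to 12247 in wild-type. Of these 0 of 6 were past the threshold in any mutant in limma, or at an unadjusted p under 0.05. At equal medians 3 of 6 rose in *top1Δtop2ts* (list median 0.42), beside 21.7% of all genes. The summed signal of 4 markers of mating type α was 1164 to 1674 in *top1Δtop2ts*, 672 to 942 in *top1Δ*, 967 to 1452 in *top2ts* and 765 to 1396 in wild-type. *MF(ALPHA)1*, the α-factor gene, had signals of 93.8 to 140.9 in *top1Δtop2ts* against 4.6 to 30.5 in wild-type. It was the 1 of 4 that rose there (adjusted p = 2.59e-11 from limma), beside 1.25% of all genes. With the block 3 of these markers rose, beside 4.99% of all genes. The wild-type arrays of *MF(ALPHA)1* lay on both sides of the Tag level, so the size of its change is not given. Its adjusted p rests on the same values and has the same limit. All 8 genes of the α-factor response were bright in every strain, with summed signals of 37775 to 59236 in *top1Δtop2ts*, 47045 to 57895 in *top1Δ*, 52064 to 98854 in *top2ts* and 52763 to 60784 in wild-type, and 0 of 8 were past the threshold in limma (3 higher in *top2ts* and 1 lower in *top1Δtop2ts* at an unadjusted p under 0.05). With the block 5 of 8 rose in *top2ts*, beside 1.12% of all genes. In *top1Δtop2ts* 3 fell and 1 rose with the block, beside 62.7% and 4.99% of all genes. With equal medians 5 rose in *top2ts*, beside 3.34% of all genes, and 3 in *top1Δtop2ts*, beside 21.7%. Of 7 genes of S phase 1 fell in *top1Δtop2ts* in limma, beside 15.1% of all genes. This was *RNR1*, at -1.68 on the log2 scale (adjusted p = 0.000624). With the block 7 of 7 fell, beside 62.7% of all genes. The summed signal of these 7 genes was 2606 to 4514 in *top1Δtop2ts* against 5496 to 9774 in wild-type. Their median change there was -0.92, beside -0.54 over all genes. At equal medians 4 of 7 fell, beside 22.9% of all genes, and the list median was -0.40. Whether these shifts, or the general level of the arrays, had a part in the changes of the GAS and CRH genes was not tested.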

How the data were processed

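Polyadenylated RNA of 4 strains was measured on 12 arrays, 3 per strain. The deposited table holds linear signal intensity, computed by the authors with MAS5 and described by them as externally normalized to spike-in RNAs, although the spike-ins still differed between arrays. Of 10928 probe sets 5498 were paired with 1 gene. Several probe sets for 1 gene were averaged as log2 values (5449 genes), and 4 values of 0 were set to 0.1. No gene was removed for low signal. limma 3.58.1 (R 4.3.3) was fitted to log2 signal of the 12 arrays together (8 residual degrees of freedom, prior variance 0.231), and p-values were adjusted by Benjamini-Hochberg at 0.05. Python 3.11.15 with numpy 2.4.6 and pandas 2.3.3 was used for the rest. Precision is limited by the number of arrays. Identical arrays numbered 0.

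The study describes 3 independent sets of experiments, which the replicate numbers were taken to mark. Deviations from the strain means correlated above 0.1 in 10 of 18 same-numbered array pairs, and 10 of 12 arrays matched best with their own number. The replicate block is given where it changes a call of the 8 genes, and as counts for the lists.

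Members and lists were chosen with earlier results of these data known. Named were all 8 members, up to 4 genes per list with the smallest adjusted p, the 3 genes most like *GAS1*, *CRH1* and *GAS2*, and neighbours of members that passed. Alternatives were the block, scaling to equal medians or to the spike-ins, quantile normalization, an intensity trend in the prior, fits of 6 arrays, an addend of 16, a filter at the Tag level and each array left out. Fits with arrays left out had no replicate block. All 4 arrays of replicate 2 were left out as an alternative chosen after seeing the data. On simulated data, with a common spread for all genes, only the comparison of *top1Δtop2ts* with wild-type was tested, without and with the block. The departure, the scalings and the correlations were not tested in this way.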

Additional observations from a re-analysis of the deposited data

Results flagged for a closer look

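*GAS2* responded to the loss of Top1p in opposite directions with and without Top2p activity. The departure of *top1Δtop2ts* from the sum of the single mutants was -3.02 on the log2 scale (adjusted p = 1.02e-05 from limma), with a change upon loss of Top1p of -1.53 in *top2ts* cells and 1.49 in cells with active Top2p. All 3 same-numbered pairs of *top1Δ* and wild-type were higher in *top1Δ*, and all 3 of *top1Δtop2ts* and *top2ts* were lower in *top1Δtop2ts*. The gene was chosen with these values known. The adjacent *YLR342W-A* also lay above wild-type in *top1Δ*, and below *top2ts* in *top1Δtop2ts*.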

How the results depend on the processing

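The count of genes past the threshold in *top1Δtop2ts*, 3 on the deposited scale, was 5 with equal medians, 6 with spike-in scaling, 6 with the replicate block and 5 with the replicate block and equal medians together. Of all genes, 22.9% fell and 21.7% rose with equal medians, and 62.7% and 4.99% with the block. For departures with the block, 14.0% were negative and 9.21% positive. Shares for the other settings are not given here, and nothing is read from these counts about the family. The count of departures among the 8 genes, 1 on the deposited scale, was 3 with equal medians, 2 with spike-in scaling, 2 with quantile normalization, 3 with the replicate block and 3 with the replicate block and equal medians, while the block changed no other call of the 8 genes against wild-type. With single arrays or all of replicate 2 left out, the counts ran from 0 to 1 in *top1Δ* (0 without wild-type replicate 2 or 3 or any *top1Δ* array), from 1 to 4 in *top1Δtop2ts* (1 without wild-type replicate 1 or 3) and from 1 to 2 for departures (2 without replicate 2).

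No reversed value was past the threshold on the deposited scale. With equal medians, with or without the replicate block, values turned positive in *top1Δtop2ts* for *GAS5* (0.11), *CRH1* (0.0144) and *GAS4* (0.50), in *top1Δ* for *GAS3* (0.14), *GAS5* (0.16) and *CRR1* (0.0704), and in *top2ts* for *GAS1* (0.10), *GAS5* (0.0212) and *CRH1* (0.10). Quantile normalization turned them in *top1Δtop2ts* for *GAS5* (0.28), *CRH1* (0.18) and *GAS4* (0.30), in *top1Δ* for *GAS3* (0.0685), *GAS5* (0.10), *GAS4* (0.10) and *CRR1* (0.24), and in *top2ts* for *GAS1* (0.0129) and *CRH1* (0.0110). Both scalings take out the general level of an array.

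With arrays left out, values that changed sign ran in *top1Δtop2ts* from -0.27 to 0.32 (*GAS4*) and -0.0489 to 0.59 (*CRR1*), in *top1Δ* from -0.36 to 0.21 (*GAS3*), -0.14 to 0.13 (*GAS5*) and -0.36 to 0.10 (*CRR1*), and in *top2ts* from -0.36 to 0.17 (*GAS1*), -0.80 to 0.00092 (*GAS3*), -0.42 to 0.14 (*GAS5*), -0.33 to 0.15 (*CRH1*), -0.26 to 0.45 (*GAS2*) and -0.20 to 0.32 (*CRR1*). The cause was not tested. On the deposited scale without the replicate block, where the standard error was 0.39, the change of *GAS3* in *top1Δtop2ts* (-0.87) was not past the threshold. With the block its standard error was 0.199 on the same arrays, and it passed (adjusted p = 0.00113 from limma).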
